A study of Mus musculus with 6 samples.

Results

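Of the 38720 rows in the deposited table of normalized counts, 84 carry the symbol of a matrix metalloproteinase (Mmp), an ADAM, an ADAMTS or ADAMTS-like protein, or a tissue inhibitor of metalloproteinases (Timp), and 57 of these had a value of 10 or more in at least 3 of the 6 libraries. These 57 genes are the members described here. They comprise 17 Mmp, 4 Timp, 14 Adam, 17 Adamts and 5 Adamtsl genes among the 17432 rows that passed the same filter. The tissue was the neck region of the mouse stomach corpus, cut from unfixed frozen sections by laser capture microdissection, from wild-type (CLDN18+/+) and Cldn18 knockout (CLDN18-/-) mice of strain B6:129S5, with 3 libraries of each. Claudin 18 seals tight junctions between gastric epithelial cells. The sample labels give the age of both groups as 7 weeks and the series text as 7 days, so the age is not settled here. The labels name no agent and no transgene. Nothing in them says that a group's libraries were made from different animals, so the p-values speak for the scatter of these libraries alone, and that scatter may be technical.

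Matrix metalloproteinases are zinc-dependent enzymes that cut collagens, laminins, proteoglycans and many secreted proteins, most are made as inactive precursors, and the TIMPs block their active site. ADAMs are membrane-bound relatives, several of which release growth factors, cytokines and receptors from the cell surface, while ADAMTS enzymes are secreted, bind the matrix and trim procollagens and large proteoglycans. In the stomach, ADAM-released ligands of the EGF receptor and matrix metalloproteinases are known from epithelial repair, inflammation and metaplasia.

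The libraries held 37673283 to 52842813 reads on genes, of which the members took 0.0552% to 0.0664% in wild type and 0.104% to 0.127% in the knockout. Cldn18 itself had 30498, 21210 and 23241 normalized counts in the wild-type libraries against 13035, 16798 and 15818 in the knockouts, a log2 difference of -0.71 ± 0.20 (SE, limma adjusted p = 0.0134), and the call was lost without knockout replicate 1 (adjusted p = 0.0896). Which part of the gene was deleted is not stated in the sources, so these values check only the direction of the labels. Wild-type replicates 2 and 3 stood apart: the summed level of 9 squamous epithelium markers was 543, 7283 and 2697 in wild-type replicates 1, 2 and 3 and 604 to 731 in the knockout, and that of 8 neuron and glia markers was 590, 3882 and 1591 against 193 to 296. Of the glandular markers, 6 of 6 parietal cell and 6 of 6 tested chief cell genes were lower in the knockout. Of 6 mucous neck cell genes 3 were higher (Cftr, Gkn3 and Agr2) and 2 lower (Muc6 and Pgc, which is also a chief cell gene). Muc6, the mucin that defines these cells, was at 6917 or more in all 6 libraries. The summed level of the 6 mucous neck cell genes, Pgc included, was 1.48e+06 to 2.35e+06 in wild type and 1.24e+05 to 2.04e+05 in the knockout. In bulk RNA of this kind, fewer cells of a type and less RNA per cell cannot be told apart.

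In the knockout the secreted proteases Mmp10, Mmp3 and Mmp9 and the sheddase Adam8 rose from low wild-type levels. The abundant Mmp15, Adam10 and Adam17 rose by less. Among the inhibitors Timp1 rose, Timp3 and Timp4 fell and Timp2 was not called. Of the 57 members, 17 were higher and 10 lower in the knockout at an adjusted p under 0.05 (limma on log2 of the normalized count plus 1, Benjamini-Hochberg over all 17432 genes). This is 47.4% of the members, beside 44.7% of all tested genes called in either direction. The higher members were 29.8%, beside 23.3% of all genes, and the lower ones 17.5%, beside 21.5%. The 6 values did not overlap between groups for 32 members, or 56.1%, beside 55.2% of all genes. The knockout lay above wild type in 19 members, or 33.3%, beside 28.1% of all genes, and below it in 13, or 22.8%, beside 27.1%. A call with a log2 difference of at least 1 in size was reached upwards by 12 members (21.1%, beside 11.2% of all genes) and downwards by 8 (14%, beside 15.1%), and the groups of all 20 were separate (25.8% of all genes met these terms). The upward counts of 17, 19 and 12 members include Mmp10, Mmp3 and Mmp9. These genes passed the filter through the knockout libraries alone, so they had to be higher there. The shares called in either direction were close to those of the whole table. No member was raised in wild-type replicates 2 and 3 by the terms used for such genes (at least 3 and 1.5 times replicate 1), which 7.72% of all genes met. The median log2 difference was -0.08 over the members and -0.02 over all tested genes. Under quantile normalization, which shifted the median of all genes to 0.10, the split was 19 higher and 6 lower, and under upper quartile scaling, which shifted it to -0.15, it was 17 and 11. Without wild-type replicates 2 and 3 together, 12 members were higher and 5 lower. The count of lower members rested on single libraries too: it was 6 without wild-type replicate 1, 4 without wild-type replicate 3, and 6 without knockout replicate 2 or 3.

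The family counts that follow are to be read beside 23.3% higher and 21.5% lower of all tested genes. Of the 17 Mmp genes 8 were higher, 1 was lower and 8 were not called, with a median log2 difference of 0.95. The higher ones include Mmp10, Mmp3 and Mmp9, which passed the filter through the knockout libraries alone and had to be higher there. Their inclusion raises both the Mmp count and the Mmp median. Of the 14 Adam genes 6 were higher and 1 lower (median 0.21). Of the 4 Timp genes 1 was higher and 2 lower (median -1.0), and of the 5 Adamtsl genes 1 was higher and 3 lower (median -0.85). Of the 17 Adamts genes 1 was higher, 3 were lower and 13 were not called; the median of -0.21 became 0.16 under quantile normalization, so no direction is given for the family as a whole. The medians of the other families kept their sign under both scalings.

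**Figure D1:**
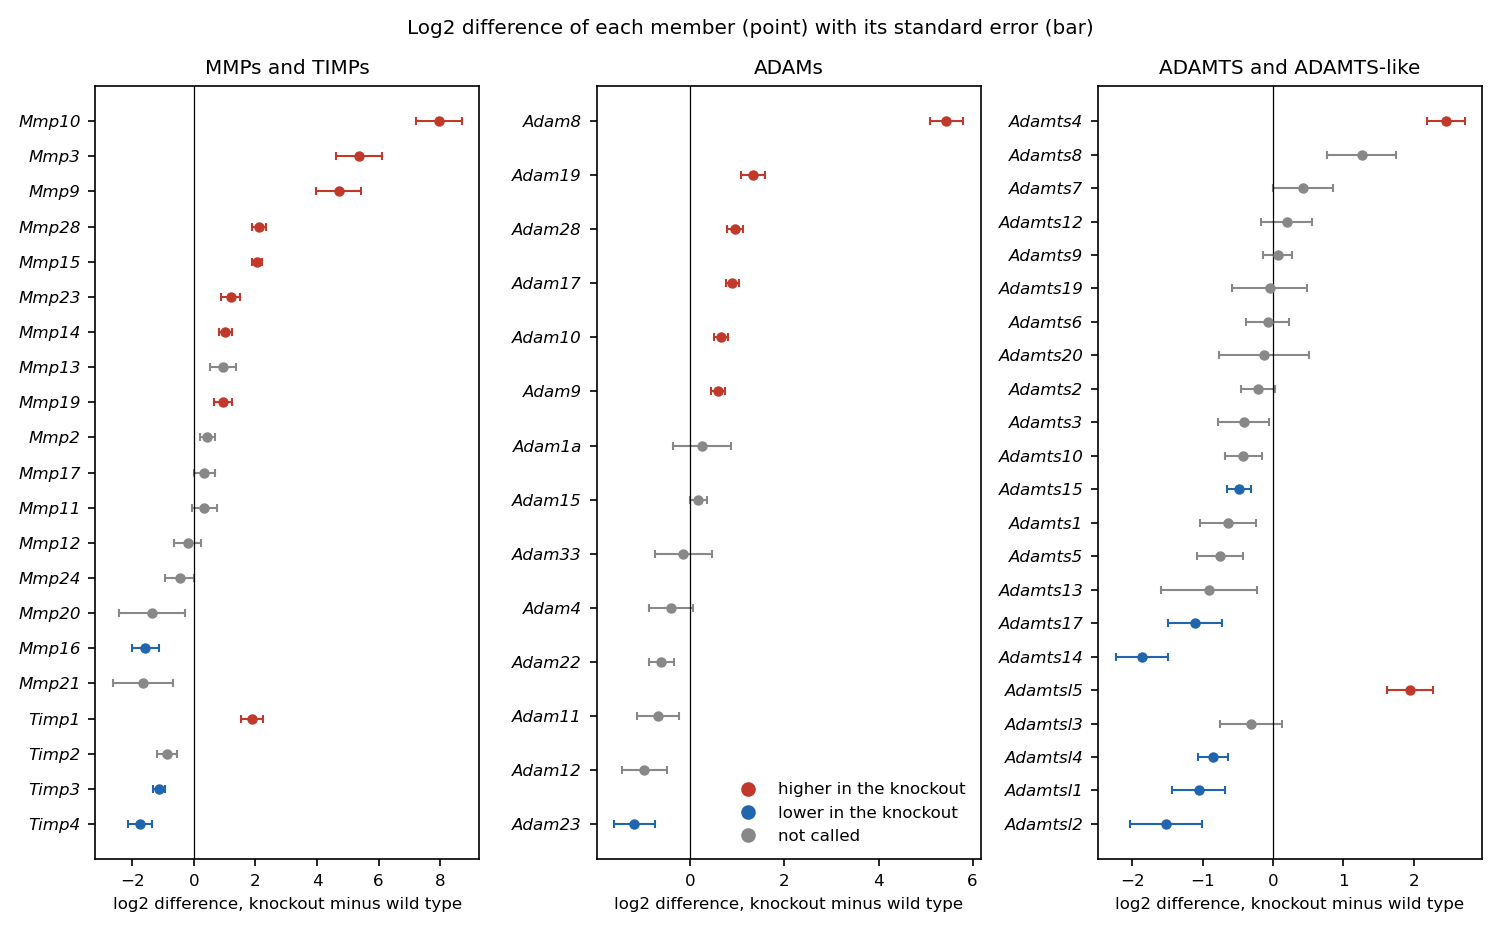
Log2 difference (knockout minus wild type, log2 of the normalized count plus 1) of each of the 57 members, with its standard error as a bar; red points were called higher, blue lower and grey neither. Mmp10, Adam8, Mmp3 and Mmp9 lie furthest to the right, from 4.70 to 7.95, while no member fell by more than 1.87.

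The stromelysins Mmp10 and Mmp3, secreted enzymes that cut proteoglycans, laminin and fibronectin and can activate other metalloproteinases, were among the 4 members with the highest increases. Mmp10 had 4.90, 0 and 4.86 normalized counts in the wild-type libraries against 654, 411 and 1939 in the knockouts. The groups lay far apart, with knockout replicate 3 highest. Its log2 difference was 7.95 ± 0.75 (SE, adjusted p = 1.97e-05); the groups held 9 and 3266 reads, a ratio of 279 after scaling for depth (95% counting interval 147 to 611, counting error only). Mmp3 had 0, 2.47 and 1.94 in the wild-type libraries against 76.5, 45.1 and 199.9 in the knockouts, again without overlap and with knockout replicate 3 highest. Its log2 difference was 5.37 ± 0.76 (adjusted p = 0.000286), from 4 and 350 reads, a ratio of 67.3 (26.1 to 248). Both genes, and Mmp9, passed the filter on values through the knockout libraries alone, so they had to be higher there. Mmp3 ran at 11.7%, 10.95% and 10.3% of the Mmp10 value in knockout replicates 1, 2 and 3; 8.37% of the 50-base words of Mmp10 transcripts also occur in Mmp3, so some reads may have been counted for either gene. The other stromelysin of the list, Mmp11, was not called (0.34 ± 0.42).

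Mmp3 and Mmp10 belong to a row of 10 Mmp genes on chromosome 9 (mm10, 7272514 to 7699585, a span of 427 kb with no other protein-coding gene), and the promoters of those that passed the filter are shown because they share a short motif while their values went different ways. RefSeq promoter windows (GRCm38.p6, 250 bases before to 50 after a start site) were found for 37 of the 57 members. A loose form of the AP-1 recognition motif was searched as TGANTCA, where N is any base, which is the same on both strands. It occurred in the windows of all 5 cluster genes that passed the filter. Of the 10 cluster genes 8 held it, all but Mmp8 and Mmp27. Among all 32851 windows 7.81% hold it, and of the 27025 genes with a window 8.97% hold it in at least 1. The 250 bases before the start site are given 5′ to 3′ on the plus strand, with the motif in capitals.
Mmp10 (chr9:7502092-7502341): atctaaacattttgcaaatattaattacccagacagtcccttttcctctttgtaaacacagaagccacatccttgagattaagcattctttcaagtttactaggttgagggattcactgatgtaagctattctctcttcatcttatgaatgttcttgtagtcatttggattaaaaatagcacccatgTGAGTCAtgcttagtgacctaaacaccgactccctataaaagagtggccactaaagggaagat
Mmp3 (chr9:7445572-7445821): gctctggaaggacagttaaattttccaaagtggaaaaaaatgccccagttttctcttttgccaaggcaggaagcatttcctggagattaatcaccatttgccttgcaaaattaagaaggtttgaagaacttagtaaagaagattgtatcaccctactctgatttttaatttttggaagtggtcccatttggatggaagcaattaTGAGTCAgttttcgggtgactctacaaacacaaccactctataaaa
Mmp13 (chr9:7272264-7272513): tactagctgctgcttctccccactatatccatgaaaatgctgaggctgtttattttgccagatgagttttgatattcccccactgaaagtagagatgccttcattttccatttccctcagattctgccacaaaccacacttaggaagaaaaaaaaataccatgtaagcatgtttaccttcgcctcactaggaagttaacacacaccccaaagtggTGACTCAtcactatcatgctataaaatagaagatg
Mmp12 (chr9:7347124-7347373): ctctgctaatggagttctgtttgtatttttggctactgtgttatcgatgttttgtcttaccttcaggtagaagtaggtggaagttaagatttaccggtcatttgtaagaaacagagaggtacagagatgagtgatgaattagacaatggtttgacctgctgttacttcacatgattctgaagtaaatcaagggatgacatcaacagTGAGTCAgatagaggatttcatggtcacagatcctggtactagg
Mmp20 (chr9:7627981-7628230): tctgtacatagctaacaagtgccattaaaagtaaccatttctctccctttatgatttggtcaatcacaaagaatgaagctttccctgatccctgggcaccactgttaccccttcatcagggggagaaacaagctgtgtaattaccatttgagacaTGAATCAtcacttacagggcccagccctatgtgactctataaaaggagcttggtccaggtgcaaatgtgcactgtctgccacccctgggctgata
The motif began at -63 in Mmp10, -46 in Mmp3, -35 in Mmp13, -44 in Mmp12 (the second of its 2 windows) and -95 in Mmp20, counted from the annotated start. Its letters were TGAGTCA in Mmp10, Mmp3 and Mmp12, TGACTCA in Mmp13 and TGAATCA in Mmp20. The Mmp20 letters match only through the loose form. A TATAAA motif, searched on both strands and present in 13.6% of all windows, followed the AP-1 letters in the windows of these 5 genes. Outside the cluster the only member with TGANTCA was Adam19, at -131 in 1 of its 3 windows. Over the members, the motif occurred in 3 of 12 higher genes with a window, in 0 of 7 lower genes and in 3 of 18 that were not called; a match describes these letters and is not a binding site.

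Within the chromosome 9 row, 2 of the 5 genes that passed the filter were called. Mmp13, a collagenase of interstitial collagens, did not overlap between groups but missed the call (0.95 ± 0.43, adjusted p = 0.0977). Mmp12, the macrophage elastase, differed by -0.19 ± 0.44, and Mmp20, an enamel protease, by -1.35 ± 1.07, and neither was called. The other 5, the collagenases Mmp1a, Mmp1b and Mmp8, the matrilysin Mmp7 and Mmp27, stayed below the filter, with 15.1 the highest value in any library. Mmp1a, which lies between the pair, had 8 reads in wild type and 4 in the knockout.

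**Figure D2:**
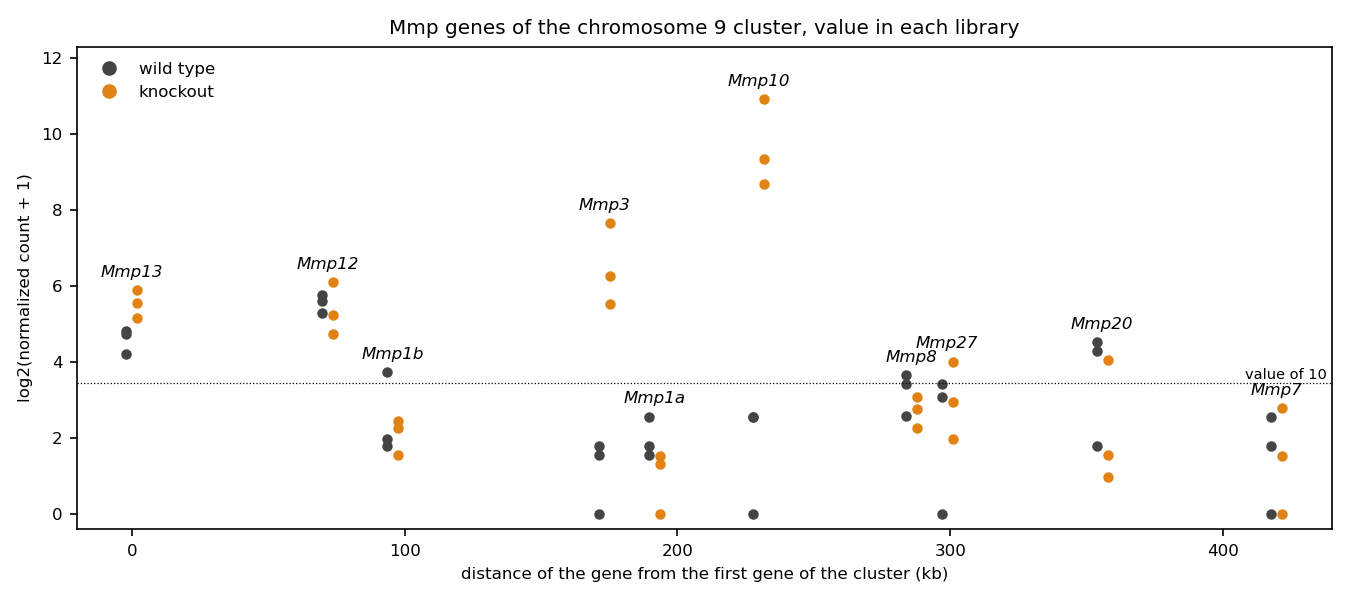
Values of the 10 Mmp genes of chromosome 9 in each library, as log2 of the normalized count plus 1, against their distance in kb from the first gene of the row; grey points are wild type and orange points knockout, and the dotted line marks a value of 10. In Mmp3 and Mmp10 alone the knockout points stand well above the wild-type points.

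The gelatinases, which cut denatured collagen and basement membrane collagen, were Mmp9 and Mmp2, and 1 of them was called. Mmp9 had 0, 1.23 and 2.91 in the wild-type libraries against 39.7, 57.6 and 63.4 in the knockouts. It passed the filter through the knockout libraries alone, so every knockout library had to be above every wild-type one. Its log2 difference was 4.70 ± 0.72 (adjusted p = 0.000489), from 4 and 186 reads, a ratio of 35.8 (13.7 to 133). Mmp2 had 943, 750 and 569 in the wild-type libraries against 900, 768 and 1470 in the knockouts. The groups overlapped, with knockout replicate 3 the highest, and Mmp2 was not called (0.45 ± 0.25, adjusted p = 0.183). Mmp9 is a gene of neutrophils and macrophages among other cells, and of 8 neutrophil markers 1 passed the filter (Csf3r, higher by 1.53 ± 0.55), 4 stayed under 10 in every library, and Ly6g was listed at 0 in all 6. The summed neutrophil level was 47.7 to 57.3 in wild type and 48.8 to 69.9 in the knockout. Of 7 macrophage markers tested, C1qa and C1qb were higher and Cd163 lower, with a summed level of 1837 to 2470 in wild type and 2498 to 4519 in the knockout; that of 8 T and B cell markers was 64.2 to 93.0 and 108 to 154. The part of these cells in the Mmp9 values was not tested.

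Among the membrane-type metalloproteinases, which are anchored at the cell surface, Mmp15 was the most abundant Mmp in both groups per kb of exon. It had 3238, 2834 and 2700 normalized counts in the wild-type libraries against 10933, 10854 and 15247 in the knockouts. The groups were well separated, and the log2 difference was 2.06 ± 0.17 (adjusted p = 7.71e-06). Mmp14, the main activator of pro-Mmp2, had 742, 525 and 535 in the wild-type libraries against 1276, 909 and 1532 in the knockouts, also without overlap. Its difference was 1.03 ± 0.22 (adjusted p = 0.00296), a call lost without wild-type replicates 2 and 3 together (adjusted p = 0.0847). Mmp23 had 100, 74.1 and 78.7 in the wild-type libraries against 138, 184 and 284 in the knockouts; it was higher by 1.20 ± 0.31 (adjusted p = 0.00954), but not without knockout replicate 3 (adjusted p = 0.0544). Mmp16 was the single Mmp that fell, from 68.5, 76.6 and 85.4 in wild type to 17.0, 21.4 and 43.3 in the knockout. Its difference was -1.57 ± 0.43 (adjusted p = 0.0126), and leaving out wild-type replicate 3 (0.0503) or knockout replicate 1 (0.0527) ended the call. Mmp17 (0.35) and Mmp24 (-0.45) were not called, and Mmp25 stayed below the filter.

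Of the other secreted Mmp genes, Mmp28 (epilysin), which is expressed by epithelia, had 211, 214 and 247 in the wild-type libraries against 1090, 706 and 1193 in the knockouts. Every knockout library was above every wild-type one, and the log2 difference was 2.12 ± 0.21 (adjusted p = 3.22e-05). An antisense gene, 1700020L24Rik, overlaps 12.0% of the Mmp28 exons and was itself higher by 2.43 ± 0.36; no source states whether counting used the strand, so reads in that stretch cannot be told apart. Mmp19 was higher by 0.95 ± 0.30 (adjusted p = 0.0260), a call lost without wild-type replicate 2 (0.0522), wild-type replicate 3 (0.0756) or knockout replicate 3 (0.129). Exons of Tmem198b and Gm47093, on the other strand, overlap those of Mmp19, the larger overlap covering 22.3%, so its level carries the same limit. The limit also holds for Adam15 (20.6%), Mmp24 (13.6%), Adamts8 (10.6%), Adamts9 (9.18%), Adam19 (8.25%) and Mmp11 (5.58%), given as the largest overlap with a single gene. In Adam1a the largest was 63.7%, and the overlapping Mapkapk5 and Gm42878 lie on its own strand, where the strand would not separate the reads. Mmp21 was not called (-1.65 ± 0.98), though its knockout values all lay below its wild-type values.

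The 4 inhibitors went different ways. Timp1, a soluble inhibitor that binds pro-Mmp9, had 39.2, 29.6 and 33.0 in the wild-type libraries against 111, 103 and 183 in the knockouts, with no overlap. It was higher by 1.89 ± 0.35 on the log2 scale (adjusted p = 0.00141). Timp3, which binds the matrix and also inhibits Adam17 and several ADAMTS enzymes, had 1329, 1160 and 921 in the wild-type libraries against 491, 436 and 632 in the knockouts. All knockout libraries were below all wild-type ones, and Timp3 fell by 1.13 ± 0.19 (adjusted p = 0.000912). Syn3, whose exons overlap 21.3% of the Timp3 exons on the other strand, also fell, by 1.61 ± 0.32, from 104 to 159 in wild type to 37.5 to 50.1 in the knockout. Timp4 had 94.3, 77.8 and 75.7 in the wild-type libraries against 33.1, 17.0 and 24.03 in the knockouts, without overlap. Timp4 fell by 1.74 ± 0.39 (adjusted p = 0.00441). Timp2, which takes part in the activation of pro-Mmp2 by Mmp14, had 2430, 6457 and 3155 in the wild-type libraries against 1557, 1789 and 2900 in the knockouts. Its groups overlapped, wild-type replicate 2 was the highest, and Timp2 missed the call (-0.87 ± 0.33, adjusted p = 0.0542). Without wild-type replicate 2 its difference was -0.46 (adjusted p = 0.130). It was called lower without wild-type replicate 1 (adjusted p = 0.00991), without knockout replicate 3 (0.0290), with the replicate number as a block (0.0104), under upper quartile scaling (0.0258) and quantile normalization (0.0267), with array weights (0.0125), with no filter on low values (0.0358) and with a mean of at least 50 (0.0482), which makes 8 of the alternatives. Wild-type replicate 2 was also the library with the highest squamous and neuronal marker sums; their part in the Timp2 value was not tested.

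**Figure D3:**
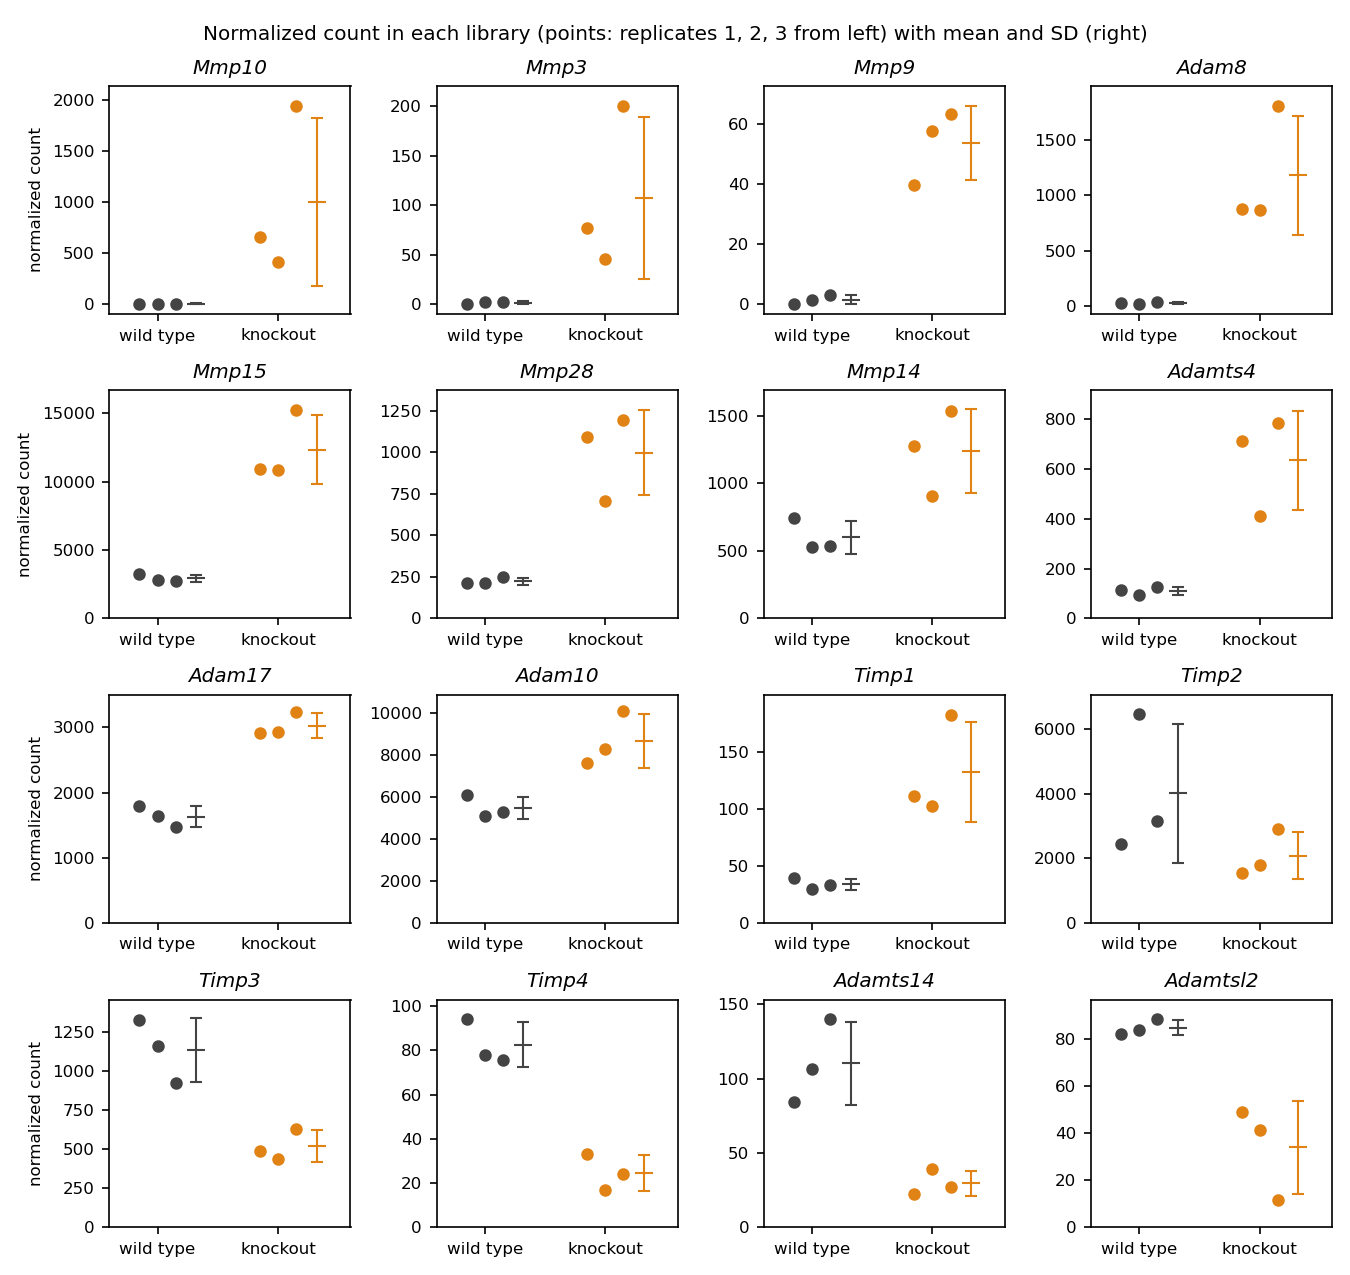
Normalized counts of 16 members in each library (points, replicates 1 to 3 from left to right, grey wild type and orange knockout), with the group mean and SD beside them; each panel has its own linear axis. The groups are separate in every panel but that of Timp2, where wild-type replicate 2 reaches 6457 and the rest range from 1557 to 3155.

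Added over each family per kb of exon, the Mmp genes had 1219, 1025 and 947 normalized counts per kb in the wild-type libraries against 3376, 3058 and 5372 in the knockouts. The Timp genes had 847, 1846 and 973 in the wild-type libraries against 591, 631 and 1032 in the knockouts, and these overlapped. The quotient of summed Mmp over summed Timp levels was 1.44, 0.555 and 0.974 in the wild-type libraries against 5.71, 4.84 and 5.21 in the knockouts. Mmp15 made up 49.2% to 52.8% of the summed Mmp level in wild type and 52.6% to 65.8% in the knockout. Timp2, which was not called and was highest in wild-type replicate 2, made up 73.6% to 89.8% of the summed Timp level in wild type and 67.6% to 72.7% in the knockout. The Mmp sums include Mmp10, Mmp3 and Mmp9, which passed the filter through the knockout alone, so these sums and the quotient are given as a description with no test. The Adam genes summed to 3070, 2645 and 2614 in the wild-type libraries against 4266, 4229 and 5214 in the knockouts, while the Adamts sums (367 to 498 and 341 to 521) and Adamtsl sums (89.4 to 108 and 89.3 to 108) overlapped.

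**Figure D4:**
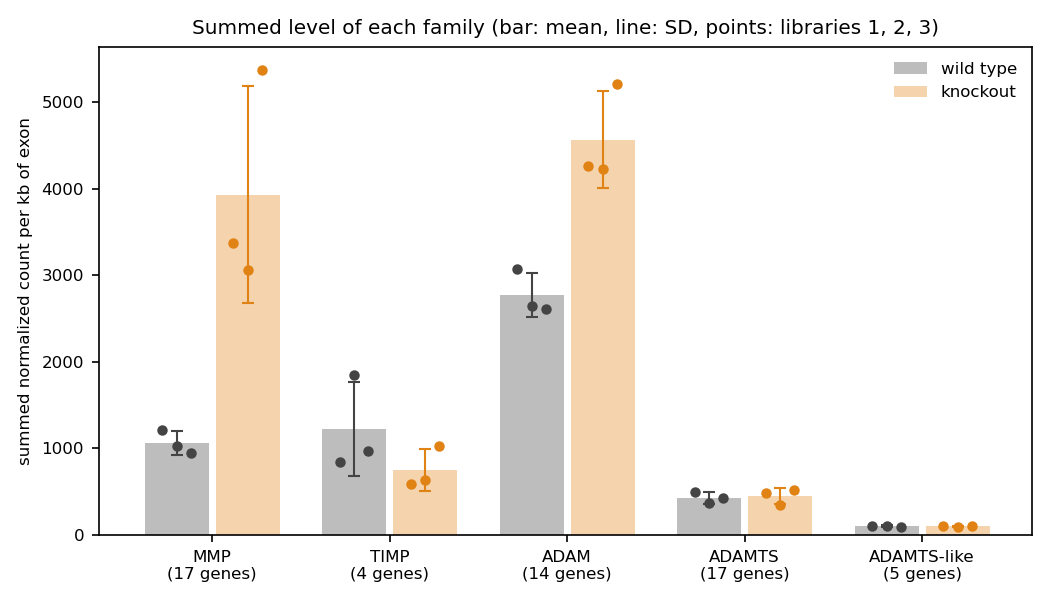
Summed normalized counts per kb of exon for each family in wild type (grey) and knockout (orange); bars are means from 0, lines are SDs and points are libraries 1 to 3. The Mmp and Adam sums of the 2 groups are separate, and the Timp, Adamts and Adamtsl sums overlap.

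The 9 Adam genes listed as sheddases, which release ligands and receptors from the cell surface, included 6 that were higher and none that was lower. Of all tested genes 23.3% were higher and 21.5% lower, and the list was chosen with earlier results of these data known. Adam8, known from leukocytes and from inflamed or neoplastic epithelia, had 29.4, 16.1 and 31.1 in the wild-type libraries against 876, 864 and 1808 in the knockouts. The groups were far apart, and the log2 difference of 5.45 ± 0.35 (adjusted p = 1.82e-06) came next after that of Mmp10. Adam17, the enzyme that releases tumor necrosis factor and amphiregulin, had 1791, 1636 and 1470 in the wild-type libraries against 2908, 2931 and 3242 in the knockouts. Its 6 values were separate and close within each group, with a difference of 0.89 ± 0.13 (adjusted p = 0.000422). Adam10, which cuts Notch receptors and cadherins, had 6075, 5081 and 5265 in the wild-type libraries against 7586, 8276 and 10068 in the knockouts. It was higher by 0.65 ± 0.16 (adjusted p = 0.00602), and Adam9 by 0.59 ± 0.14 (adjusted p = 0.00663); without wild-type replicates 2 and 3 together neither was called (0.0833 and 0.0798). Adam19, a sheddase of neuregulin, had 564, 332 and 464 in the wild-type libraries against 828, 1098 and 1517 in the knockouts, with no overlap. Its difference was 1.33 ± 0.25 (adjusted p = 0.00160), and Adam28 was higher by 0.96 ± 0.17 (adjusted p = 0.00126). Adam12 (-0.98), Adam15 (0.17) and Adam33 (-0.15) were not called, though every knockout value of Adam12 lay below every wild-type one.

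The 3 Adam genes whose proteins lack a catalytic zinc site and act as adhesion or channel partners in neurons included 1 that was lower. Adam23 had 68.5, 75.3 and 68.0 in the wild-type libraries against 54.8, 22.9 and 22.1 in the knockouts. The groups did not overlap, and Adam23 fell by 1.19 ± 0.43 (adjusted p = 0.0441). This call was lost without any 1 of wild-type replicates 1 to 3 (adjusted p from 0.0673 to 0.0952) and without knockout replicate 2 (0.133) or 3 (0.140). Adam22 (-0.61) and Adam11 (-0.68) were not called. Of 8 neuron and glia markers 5 were lower, and their sum was highest in wild-type replicate 2. Adam23 was also highest in that library, while Adam22 and Adam11 were highest in wild-type replicate 3; the part of these cells in the values was not tested. Of the 21 Adam genes known mainly from the male germ line, 19 were below the filter, and Adam1a (0.25) and Adam4 (-0.42) were not called. In Adam1a, 77.8% of the 50-base words of its transcripts occur in other genes, so its level is uncertain.

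Among the 7 proteoglycan-cleaving Adamts genes, Adamts4, an aggrecanase, had 113, 95.1 and 127 in the wild-type libraries against 711, 411 and 786 in the knockouts. The groups were separate, and Adamts4 was the only Adamts gene called higher, by 2.46 ± 0.27 (adjusted p = 5.02e-05). Adamts15, which cleaves versican, fell by 0.48 ± 0.17 (adjusted p = 0.0419), a call lost without wild-type replicate 1 (0.103) or 3 (0.0852) and without knockout replicate 2 (0.161) or 3 (0.103). Adamts8 did not overlap between groups and missed the call (1.26 ± 0.49, adjusted p = 0.0605). The others were not called either: Adamts1 differed by -0.64, Adamts5, the other main aggrecanase, by -0.75, Adamts9 by 0.07 and Adamts20 by -0.13. In Adamts5 the knockout values all lay below the wild-type values.

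Of the 3 procollagen N-propeptidases, which trim fibrillar procollagens, Adamts14 had 84.5, 106 and 140 in the wild-type libraries against 22.7, 39.2 and 26.9 in the knockouts. No value overlapped, and Adamts14 fell by 1.87 ± 0.37 (adjusted p = 0.00225), the greatest decrease of any member; without wild-type replicates 2 and 3 together it was not called (0.0628). Adamts2 (-0.21) and Adamts3 (-0.42) were not called. Of the other Adamts genes, Adamts17 had 93.0, 54.3 and 56.3 in the wild-type libraries against 28.3, 31.0 and 30.8 in the knockouts. It fell by 1.11 ± 0.38 (adjusted p = 0.0365), and this call was lost in every fit that left out 1 library except that without wild-type replicate 2 (adjusted p from 0.0557 to 0.116 in the 5 that lost it). Adamts6, Adamts7, Adamts10, Adamts12, Adamts13 and Adamts19 were not called, with differences from -0.91 (Adamts13) to 0.42 (Adamts7).

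The Adamtsl genes code for matrix proteins without a protease domain that bind fibrillin microfibrils. Adamtsl5 had 83.2, 46.9 and 58.3 in the wild-type libraries against 253, 170 and 315 in the knockouts, a separate pair of groups. It was higher by 1.95 ± 0.32 (adjusted p = 0.000777). Adamtsl2 had 82.0, 84.0 and 88.4 in the wild-type libraries against 49.1, 41.4 and 11.5 in the knockouts, where replicate 3 was lowest. It fell by 1.52 ± 0.51 (adjusted p = 0.0334), but not past the threshold without wild-type replicate 1 (0.0525), wild-type replicate 3 (0.0964) or knockout replicate 3 (0.0866). Adamtsl1 had 80.8, 55.6 and 65.1 in the wild-type libraries against 24.6, 38.4 and 32.7 in the knockouts, without overlap. It fell by 1.06 ± 0.38 (adjusted p = 0.0415), a call that held when wild-type replicate 2 was left out and for no other single library (adjusted p from 0.0545 to 0.140). Adamtsl4 fell by 0.85 ± 0.21 (adjusted p = 0.00799), and Adamtsl3 was not called (-0.31).

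**Figure D5:**
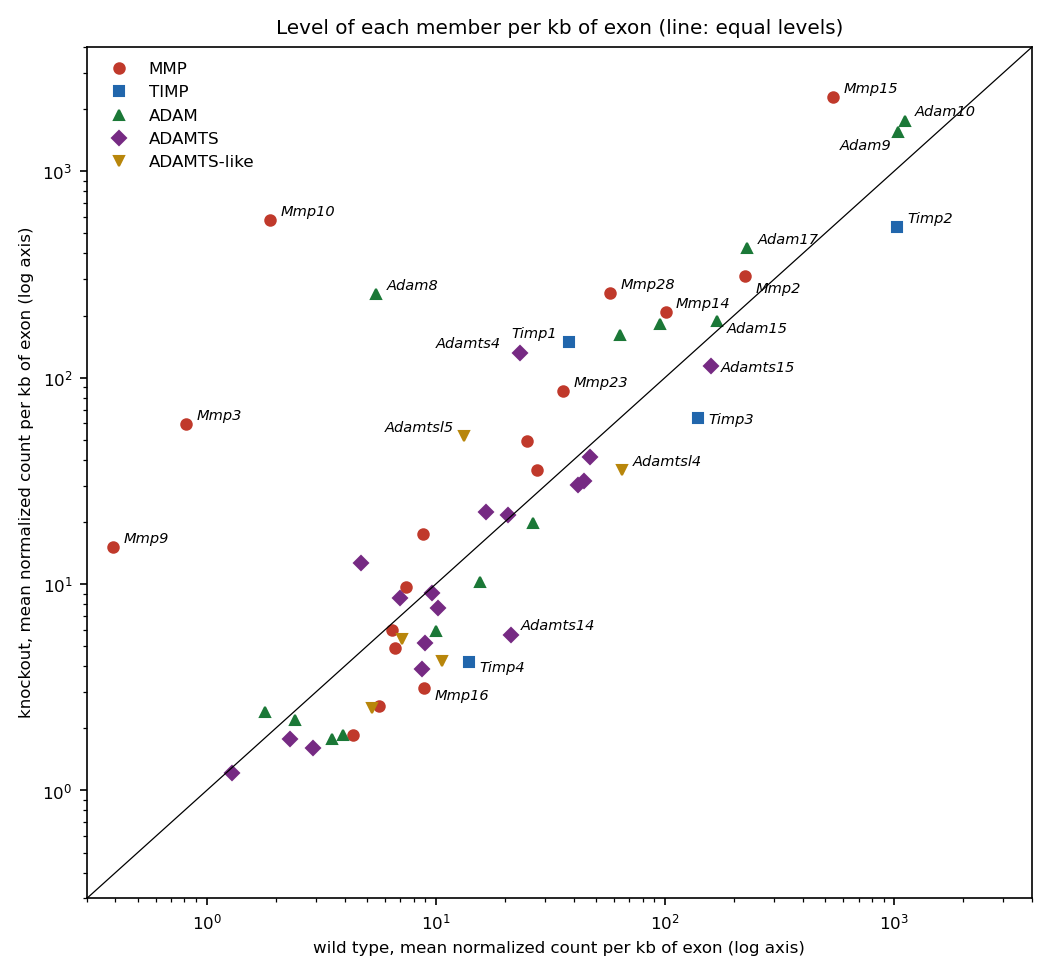
Mean normalized count per kb of exon of each member in wild type (horizontal, log axis) and knockout (vertical, log axis), marked by family, with the line of equal levels. Mmp10, Adam8, Mmp3 and Mmp9 stand far above the line among genes that were low in wild type, and Mmp15, Adam10, Adam9 and Timp2 are the most abundant members in wild type.

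Per kb of exon, Adam10 (1114), Adam9 (1038), Timp2 (1030) and Mmp15 (542) had the highest mean levels in wild type. In the knockout the order was Mmp15 (2287), Adam10 (1759), Adam9 (1556), Mmp10 (581) and Timp2 (534). Mmp10 thus went from rank 53 to rank 4 of the 57 and Adam8 from rank 44 to rank 9. In the knockout, replicate 3 was the highest of its group in 16 of the 17 higher members, or 94.1%, beside 52.7% of all 4053 genes that were higher. It also had the highest sum of 8 fibroblast markers in the knockout, 49050 against 27775 and 30692, while wild type ranged from 23440 to 39220. Of these markers 3 were higher (Pdgfra, Lum and Dcn) and 5 not called. Knockout replicate 3 also had the highest macrophage sum of its group, 4519 against 2959 and 2498. The mast cell, endothelial, smooth muscle and squamous sums were highest there too. The neutrophil, T and B cell, neuron and glia, mucous neck, parietal, chief and pit cell sums were highest in another knockout library. The part of these cells in the members' values was not tested. Without knockout replicate 3, 15 members were higher.

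Of the 5 members that reached 10 in exactly 3 libraries, Mmp10, Mmp3 and Mmp9 did so in the knockout, while Adam33 and Mmp20 did so across both groups. The 27 rows below the filter never exceeded 26.9. Of these, 9 reached 10 in 2 libraries, with highest values of 26.9 for Adam25, 22.3 for Adamts16, 17.9 for Adamts18, 16.3 for Adam21, 15.9 for Adam2, 14.4 for Adam5, 14.2 for Adam32, 13.5 for Adam3 and 11.8 for Mmp25. A further 8 reached it in 1 library: Adam7 (18.5), Mmp27 (15.1), Adam39 (14.6), Adam29 (13.3), Mmp1b (12.35), Adam26b (11.7), Mmp8 (11.7) and Adam34 (10.3). The remaining 10 stayed under 10 throughout.

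Other genes of the protease system were counted from lists by role: 50 of 58 passed the filter, and 23 of them were higher and 5 lower, beside 23.3% higher and 21.5% lower of all tested genes, the shares against which the counts of each list below are to be read. Among the proprotein convertases, which cut the propeptides of membrane-type Mmp, Adam and Adamts precursors, Furin had 40760, 37376 and 23784 normalized counts in the wild-type libraries against 3065, 2264 and 5190 in the knockouts. It fell by 3.32 ± 0.30 on the log2 scale (adjusted p = 1.41e-05), while Pcsk6 was higher by 1.56 ± 0.18 (adjusted p = 7.70e-05) and Pcsk5 and Pcsk7 were not called. Of 8 partners that carry Adam10 or Adam17 to the cell surface, 5 were higher, among them Tspan5 (1.602 ± 0.17) and the iRhom Rhbdf1 (1.37 ± 0.28), and 2 were lower, Tspan17 (-2.05 ± 0.40) and Tspan33 (-1.18 ± 0.20). Of 6 tested genes of plasminogen activation, which can activate Mmp precursors, 3 were higher: the receptor Plaur (5.39 ± 0.30), the activator Plat (2.86 ± 0.36) and the inhibitor Serpine2 (1.28 ± 0.31). Plaur had 111, 133 and 158 in the wild-type libraries against 7084, 3197 and 7903 in the knockouts.

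Of 10 tested ligands that Adam proteins release, 8 were higher and 1 lower. Areg had 36.7, 105 and 60.2 in the wild-type libraries against 4165, 2569 and 3658 in the knockouts, a difference of 5.76 ± 0.33 (adjusted p = 9.53e-07). Hbegf was higher by 3.17 ± 0.24 and Epgn by 3.07 ± 0.83, whereas Egf fell by 4.01 ± 0.37. Epgn also passed the filter through the knockout alone, and its call was lost without knockout replicate 1 (adjusted p = 0.0570). Among the matrix substrates, Fn1 (1.24 ± 0.24), Lamb3 (1.03 ± 0.21) and Vcan (0.94 ± 0.26) were higher, and the fibrillar and basement membrane collagens listed were not called. Of 5 tested astacin proteases and enhancers Mep1b (2.18 ± 0.63) and Pcolce (1.12 ± 0.24) were higher, and of 5 other inhibitors and inducers Bsg, an inducer of Mmp expression, was lower (-0.48 ± 0.18, adjusted p = 0.0457). Reck, a membrane inhibitor of Mmp and Adam enzymes, was not called (-0.78 ± 0.32, adjusted p = 0.0741). Of the markers of other cells, 4 of 6 tested mast cell genes were higher (the sum of all 7 listed was 79.0 to 568 in wild type and 865 to 1649 in the knockout), 5 of 7 endothelial genes and 4 of 8 smooth muscle genes were lower; their part in the members' values was not tested.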

How the data were processed

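RNA from 3 wild-type and 3 knockout libraries was analysed from the authors' deposited normalized counts per gene, treated as a signal with a true zero. STAR, featureCounts, DESeq and the mm10 build are named, without versions, in what the authors state, per the submitters' processing notes; no source names the annotation or the strand setting. In each library 100% of values were whole multiples of 1 number within 0.05 reads, which gave back the read counts behind the deposited values; 0 columns of per-sample values were left unused. The authors also deposited a table of fold changes (ratios) with p-values, used here only as an alternative.

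The main test was limma 3.58.1 (lmFit, eBayes with a mean trend; R 4.3.3), two-sided, on log2(normalized count + 1), which understates the change of low genes, over rows at 10 or more in 3 or more libraries. Benjamini-Hochberg adjustment covered all 17432 of them, and calls were made below an adjusted p of 0.05. The fit was tested on simulated counts in which a small part of the genes changed, all with a mean of at least 50. In the real data far more genes were called and many members lay lower. The simulation therefore does not vouch for the calls given here. Ratios of reads carry a 95% interval that covers counting error only. Coordinates, exon lengths and overlaps come from GENCODE vM21 (mm10), in which all 84 symbols were found; promoters come from RefSeq (GRCm38.p6).

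The members and the gene lists were chosen with earlier results of these data known. All 6 values are printed for members called with a log2 difference of at least 1 in size and no overlap, for every Timp, and for Mmp2, Mmp14, Adam10 and Adam17; other members are named or counted, and up to 4 called genes a related list are named. The values of 1 gene of the related lists are not reported here. Alternatives changed the pseudocount, filter, scaling, variance model, libraries and test (edgeR 4.0.16 and DESeq2 1.42.0 on the recovered reads). The promoter motifs were chosen for this description and are not tested.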

Additional observations from a re-analysis of the deposited data

How the results depend on the processing

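Of the 27 called members, 15 kept their call in all alternatives that tested them, 12 lost it in at least 1 and 0 changed direction; of the 30 not called, 5 were called in at least 1. The 17 higher members ranged from 12 to 19. The 10 lower members were 6 under quantile normalization and 6 in the authors' deposited comparison, 5 without wild-type replicates 2 and 3 together, and 4 to 10 when single libraries were left out. That joint omission was added after the data had been seen and leaves 1 wild-type library, whose spread is taken to equal that of the knockouts; the 3743 lower genes became 2488 under it and 2025 in the authors' deposited comparison, which also called 3 of the 5 lower related genes. With the replicate number as a block, 17 members were higher and 8 lower; the numbers do not pair the libraries (correlations of deviations -0.00366, 0.0214 and -0.173). Members that were not called and changed sign did so under quantile normalization in Adam33 (0.50), Adam4 (0.10), Adamts19 (0.56), Adamts20 (0.40), Adamts3 (0.16), Adamts6 (0.42), Adamtsl3 (0.30), Mmp12 (0.35) and Mmp24 (0.15). Under upper quartile scaling Adamts9 did (-0.071), and under array weights Adamts9 (-0.0466) and Adamts19 (0.0047). Without wild-type replicates 2 and 3 together Adamts19 (0.43), Adamts20 (0.081), Adamts6 (0.0074), Adamts7 (-0.34), Adamtsl3 (0.027) and Mmp12 (0.079) did. When single libraries were left out the sign changed within -0.090 to 0.74 for Adam1a, -0.40 to 0.0021 for Adam33, -0.17 to 0.42 for Adamts12, -0.29 to 0.19 for Adamts19, -0.59 to 0.43 for Adamts20, -0.18 to 0.053 for Adamts6, -0.052 to 0.19 for Adamts9, -0.52 to 0.072 for Adamtsl3, -0.0055 to 0.65 for Mmp11 and -0.57 to 0.12 for Mmp12. The causes were not tested. Members under about 10 reads a library, such as Mmp3 and Mmp9 in wild type, have levels that depth limits, and their fitted differences depend on the pseudocount.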
